A study of Mesocentrotus franciscanus with 18 samples.

Results

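The radial nerve cord was compared with the esophagus of the same small red sea urchins (Mesocentrotus franciscanus). The comparison used 6 of the 18 libraries of the series. These were the 3 libraries of radial nerve from small animals (RN-S) and the 3 libraries of esophagus from small animals (ES-S). They were chosen by the tissue, size and sampling year in their titles. Another label gave a different year for some RN libraries. A positive log2 fold-change means higher in the nerve. Gene names were available for part of the features only, and 340 genes in 21 lists (neuronal, gut and other cell type genes) were drawn up from them, of which 294 could be tied to a feature of the count table and 254 had enough counts to be tested.

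The series asked how expression differs between small (young) and large (old) animals of this long-lived species in Aristotle's lantern muscle, esophagus and radial nerve. All animals were wild, untreated and collected at a single place, in summer, in 2010, 2011 and 2013. Libraries were made from RNA pooled over the small animals of a single year, so the nerve and esophagus libraries of a year came from the same pool of animals, and 3 yearly pools were the replicates of each tissue. Each pool averages over animals whose sex and individual age are not given by the labels, and spread between animals is not measured. RN-S of 2013 and the 3 ES-S libraries carried names of the same library series and were run on 2 lanes, while RN-S of 2010 and 2011 belonged to another library series run on 1 lane, so in those years tissue and library series cannot be told apart.

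The radial nerve cords of a sea urchin run along the inside of the shell, each joined at the mouth to a nerve ring, and send branches to the tube feet, spines and skin. They hold cell bodies as well as fibres, and sea urchin neurons use acetylcholine, glutamate, GABA, monoamines and many peptides. The esophagus leads from the mouth, through the chewing apparatus, to the stomach; its wall has an inner epithelium of endoderm origin, connective tissue, muscle and its own nerve plexus. Either dissection could hold neurons, muscle, connective tissue and ciliated cells, and a bulk library cannot tell fewer cells of a type from less RNA per cell.

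Totals ranged from 8291800 counts (RN-S 2013) to 11195218 counts (RN-S 2010). The most abundant feature, named as a muscle actin, took 16.7%, 8.58% and 10.8% of RN-S of 2010, 2011 and 2013, and the top feature of each ES-S library took 2.77% to 4.26%. Across features, log2 counts correlated at 0.92 to 0.94 among the ES-S libraries, at 0.95 between RN-S of 2010 and 2011 and at 0.92 between either of these and RN-S of 2013. RN-S of 2013 correlated with the ES-S libraries at 0.58 to 0.61, and RN-S of 2010 and 2011 at 0.55 to 0.57.

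Of 30359 features tested, 5293 (17.4%) were called higher in RN-S and 6808 (22.4%) higher in ES-S, where called means an adjusted p under 0.05 over all features and a difference of more than 2-fold. The sign was the same in all 3 year pairs for 11961 of the 12101 features called (39.9% of those tested), and the ranges of the tissues did not overlap for 11277 of them. Over all features tested, whether called or not, all 3 RN-S libraries were above all 3 ES-S libraries for 7178 (23.6%) and below them for 8372 (27.6%), 15880 (52.3%) had an unadjusted p under 0.05, and the median log2 fold-change was -0.065. Large differences were more often toward the esophagus: 2232 features were called more than 16-fold higher in ES-S and 672 more than 16-fold higher in RN-S. Among features called higher in ES-S, 984 had no count in any RN-S library, of which 186 reached at least 10 CPM (counts scaled to a common library size) in each ES-S library. In the other direction 78 features had no count in any ES-S library, and 8 of these reached 10 CPM in each RN-S library. Features without a count in a tissue were tested only because of their counts in the other, so their direction was fixed.

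With RN-S of 2013 alone set against the 3 ES-S libraries, within a single library series, 2649 features (7.07% of 37474 tested) were called higher in nerve and 3808 (10.2%) higher in esophagus. Of the 12101 features called with all 6 libraries, 11994 could be tested in this way, 11867 kept their sign and 6067 were called again. This comparison takes the spread of the single nerve library from the ES-S group. All of its libraries were also in the comparison of 6 libraries, and the features followed were chosen by their call there. A kept sign is therefore no independent evidence.

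**Figure D1:**
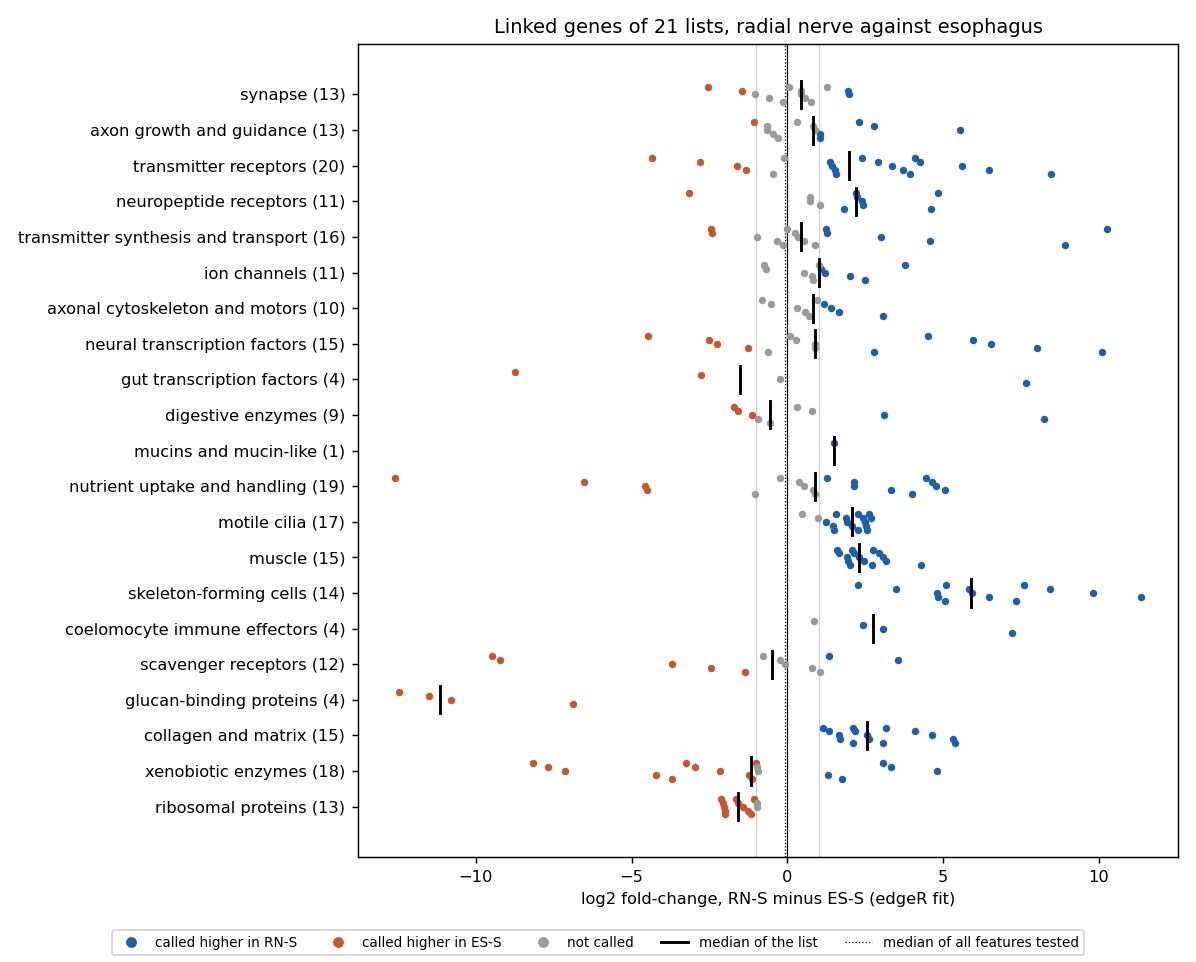
Log2 fold-change (RN-S minus ES-S, x axis) of each tested gene of the 21 lists (y axis, number of genes in parentheses), coloured by call. Black bars are list medians, the dotted line marks the median of all features (-0.065) and grey lines mark a 2-fold difference. All tested genes of the muscle, skeleton-forming cell and collagen lists lie to the right, at 1.14 or more, and the 4 glucan-binding proteins lie far to the left.

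Values below are CPM in the libraries of 2010, 2011 and 2013, in that order. Genes carry the names that the study gave to the purple sea urchin (Strongylocentrotus purpuratus) genes they match. The named genes had all been selected in the study as differing between small and large animals, mainly in the radial nerve, and the RN-S libraries were part of that selection, so their counts are no independent evidence of a direction. Among 1012 linked genes with a higher mean in RN of large than of small animals, 216 (21.3%) were called higher in RN-S and 183 (18.1%) higher in ES-S, with a median of 0.038. Among 285 linked genes with a higher mean in RN of small animals, 159 (55.8%) were called higher in RN-S and 68 (23.9%) higher in ES-S, with a median of 1.49. For each list below the number of members higher in RN of small animals (RN-S above RN-L) is given for this reason. By their names, the RN libraries of large animals (RN-L) belonged to a library series that held no RN-S library. Size and library series therefore cannot be told apart in that number.

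Sequence of the animals themselves was at hand only as the quantitative PCR primers of the study, designed on red sea urchin reads. Those for a muscle gene, a gene of the neural transcription factor list, a synaptic gene and a skeletal gene described below are shown. No gene sequence was at hand on which to place them. Each line gives a primer in the 5′ to 3′ direction, with no capitals since no base is singled out.
muscle actin (Msclact, SPU_006797) forward: ggtcaggtcatcactattg
muscle actin reverse: gctgttgtatgtggtctc
Mab21l2 (SPU_001059) forward: catgtcactttgggtcgagtttat
Mab21l2 reverse: cgtttgaaaccgtgatcgaa
Neurx (SPU_024416) forward: aatcccttcaccttcagaacaaaa
Neurx reverse: agcgtcagggctggataaga
Sm30E (SPU_004867) forward: ccaagcccagttccaagga
Sm30E reverse: gttggcgattaccaggttgac
The primers are 18 to 24 bases long.

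Enzymes and transporters of the monoamine and acetylcholine systems held some of the widest differences among neuronal genes. Of 16 genes of transmitter synthesis and transport tested, 6 (37.5%, against 17.4% of all features) were higher in RN-S, 2 (12.5%, against 22.4%) were higher in ES-S and 8 were not called, with a median of 0.44, and 5 of the 16 were higher in RN of small animals. Dbh_1 (SPU_008370), named after dopamine beta-hydroxylase, which makes noradrenaline from dopamine in vertebrates, stood at 53.9, 65.1 and 60.4 CPM in RN-S and at 0, 0 and 0.106 CPM in ES-S. A single count was seen in the esophagus, and the ratio of nerve to esophagus was 1688 (95% counting interval 302 to 66694), called at an adjusted p of 2.6e-07. Th (SPU_000836), tyrosine hydroxylase, the rate-limiting enzyme of catecholamine synthesis, stood at 28.6, 26.1 and 31.2 CPM in RN-S and 1.56, 1.24 and 0.846 CPM in ES-S. Its groups were far apart in every year (log2 fold-change 4.56 ± 0.33 (SE), adjusted p = 2.4e-06). Slc5a7_4 (SPU_020026), named after the high-affinity choline transporter that recovers choline for acetylcholine synthesis, stood at 129, 73.0 and 68.9 CPM in RN-S and 0.334, 0.103 and 0.106 CPM in ES-S. RN-S of 2010 was its highest library and no esophagus library came near (log2 fold-change 8.89 ± 0.36 (SE), adjusted p = 1.1e-07), and the log2 fold-change was 9.58 without ES-S 2010. A second gene of the same name, Slc5a7_1, was not called, at 3.42, 2.04 and 3.40 CPM in RN-S and 5.01, 2.27 and 4.02 CPM in ES-S.

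Pam_2 (SPU_014640), peptidylglycine amidating monooxygenase, which carries out the last step in making amidated neuropeptides, stood at 137, 179.9 and 109.7 CPM in RN-S against 17.8, 24.0 and 12.6 CPM in ES-S. All 3 nerve libraries were above all 3 esophagus libraries (log2 fold-change 2.99 ± 0.22 (SE), adjusted p = 2.8e-06). Maob (SPU_024267), a monoamine oxidase, was also higher in RN-S at 519, 420.0 and 642 CPM against 251, 290.1 and 146 CPM (log2 fold-change 1.24 ± 0.30 (SE), adjusted p = 0.0066), but was no longer called when libraries were left out, with a log2 fold-change of 0.78 without the libraries of 2013 and 0.96 without ES-S 2013. Acetylcholinesterases, which break acetylcholine down, went the other way. AchE_5 (SPU_002605) stood at 13.1, 18.3 and 12.05 CPM in ES-S and 2.35, 4.18 and 1.82 CPM in RN-S (log2 fold-change -2.42 ± 0.29 (SE), adjusted p = 8.4e-05). AchE (SPU_006123) likewise was higher in every esophagus library, at 7.68, 17.2 and 10.4 CPM against 2.03, 1.36 and 2.92 CPM (log2 fold-change -2.44 ± 0.40 (SE), adjusted p = 6.4e-04), while AchE_2 was not called (log2 fold-change 0.53, adjusted p = 0.065). The groups overlapped for Gad, which makes GABA, at 2.46, 2.43 and 1.46 CPM in RN-S and 2.56, 2.88 and 1.16 CPM in ES-S. Gat, a GABA transporter, passed on p but not on size (log2 fold-change 0.89 ± 0.25 (SE), adjusted p = 0.014).

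**Figure D2:**
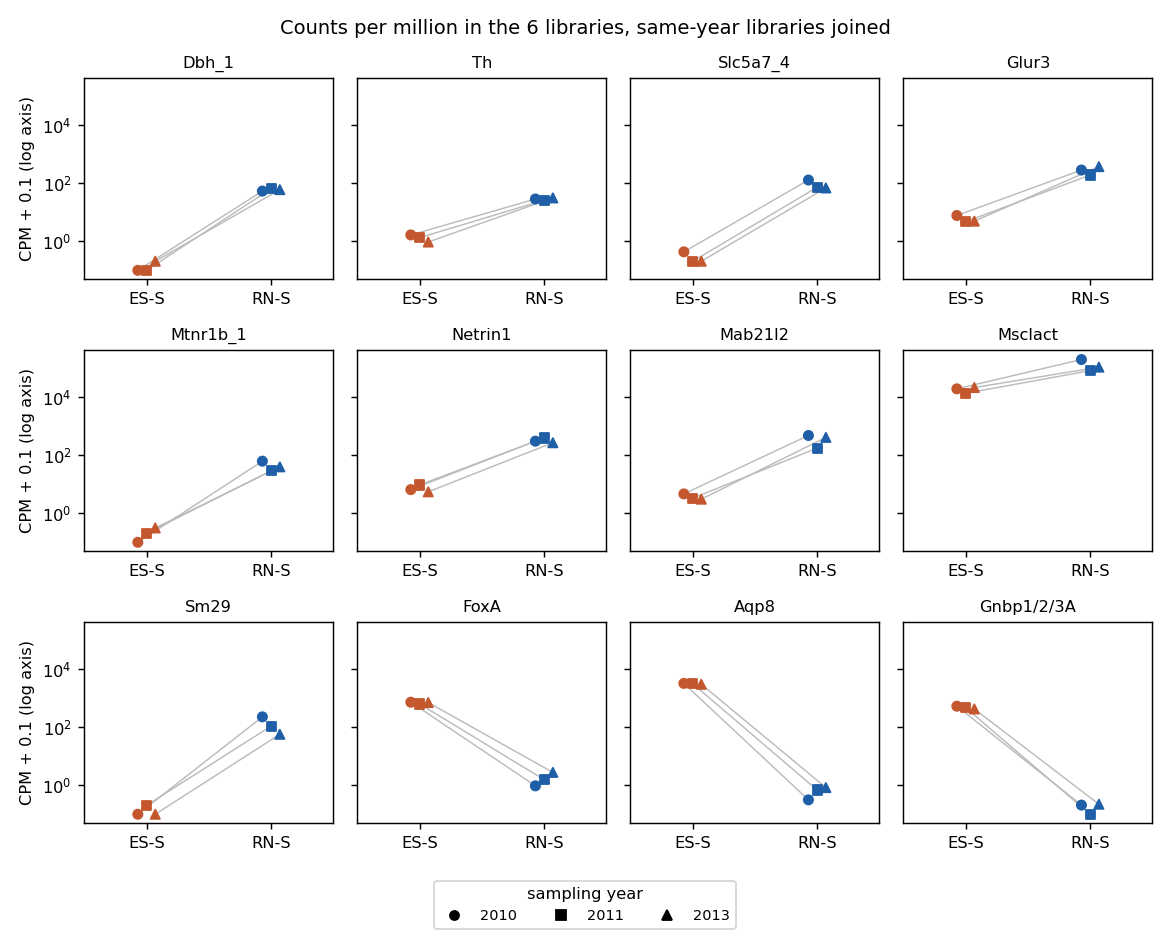
CPM plus 0.1 (log axis) of 12 genes in the ES-S (orange) and RN-S (blue) libraries, with the 2 libraries of each sampling year joined by a line and the year given by the marker. Every line rises for the 9 genes from Dbh_1 to Sm29 and falls for FoxA, Aqp8 and Gnbp1/2/3A.

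Receptors for small transmitters were mostly higher in the nerve. Of 20 tested, 14 (70.0%, against 17.4% of all features) were higher in RN-S, 4 (20%, against 22.4%) higher in ES-S and 2 not called, with a median of 1.97, and 5 of the 20 were higher in RN of small animals. Another 10 of the linked receptors had too few counts to be tested. Glur3 (SPU_002787), an AMPA-type glutamate receptor by its human match GRIA4, stood at 286, 192 and 375 CPM in RN-S and 7.68, 4.64 and 4.86 CPM in ES-S. The groups were far apart (log2 fold-change 5.61 ± 0.30 (SE), adjusted p = 4.2e-07). Glur1 (SPU_027899), whose human match is the NMDA-type subunit GRIN2A, stood at 245, 73.7 and 441 CPM in RN-S and 3.11, 2.06 and 1.80 CPM in ES-S. Its nerve libraries differed widely, RN-S of 2011 being the lowest, yet none came near the esophagus (log2 fold-change 6.47 ± 0.48 (SE), adjusted p = 2.8e-06), and the log2 fold-change was 7.08 without the libraries of 2011, 5.77 without the libraries of 2013 and 7.24 without RN-S 2011. Mtnr1b_1 (SPU_020142), named after a melatonin receptor, stood at 62.5, 29.0 and 39.7 CPM in RN-S and 0, 0.103 and 0.211 CPM in ES-S. On 3 counts in the esophagus the ratio was 408 (95% counting interval 139 to 1979.6), with an adjusted p of 7.5e-07.

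Chrm3L (SPU_021092), named after a muscarinic acetylcholine receptor though its listed human match is the histamine receptor HRH4, stood at 15.3, 24.2 and 12.4 CPM in RN-S against 0.556, 1.44 and 0.740 CPM in ES-S (log2 fold-change 4.24 ± 0.34 (SE), adjusted p = 4.6e-06). The metabotropic receptors Gabbr1_3 (SPU_004567, for GABA) and Mglur3 (SPU_025315, for glutamate) had log2 fold-changes of 4.09 and 3.92, with adjusted p of 3.1e-05 and 5.5e-06. No library of one tissue overlapped the other for either gene: Gabbr1_3 stood at 7.16, 5.53 and 12.6 CPM in RN-S and 0.556, 0.412 and 0.423 CPM in ES-S. Some receptors of the same families were higher in the esophagus. Gabbr2L (SPU_028211), named after the partner subunit of the GABA-B receptor, stood at 16.02, 11.3 and 28.2 CPM in ES-S and 0.534, 0.777 and 1.34 CPM in RN-S (log2 fold-change -4.35 ± 0.35 (SE), adjusted p = 4.6e-06). Chrna10 (SPU_027434), a nicotinic-type channel subunit, stood at 6.79, 6.70 and 6.98 CPM in ES-S and 0.641, 1.46 and 0.851 CPM in RN-S (log2 fold-change -2.80 ± 0.40 (SE), adjusted p = 2.3e-04). Grm8 and Nacha7_1 were also called higher in ES-S, with log2 fold-changes of -1.61 and -1.33. Grm8 (metabotropic glutamate receptor) lost its call in some fits, at -1.32 without the libraries of 2010 and -1.43 without RN-S 2010. Nacha7_1 (nicotinic) lost it in 8 of the 9 fits that left out a year or a library, all but the fit without RN-S 2010, at -1.73 without the libraries of 2010, -1.21 without the libraries of 2011, -1.10 without the libraries of 2013, -1.16 without ES-S 2010, -1.23 without ES-S 2011, -1.37 without ES-S 2013, -1.09 without RN-S 2011 and -0.91 without RN-S 2013. The nicotinic subunit Chrna9, the member with the highest CPM, was not called, at 331, 393 and 322 CPM in RN-S and 352, 406 and 777 CPM in ES-S.

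Receptors for neuropeptides showed a like picture. Of 11 tested, 7 (63.6%, against 17.4% of all features) were higher in RN-S, 1 (9.09%, against 22.4%) was higher in ES-S and 3 were not called, with a median of 2.18. All 11 were higher in RN of large than of small animals. Tacr2 (SPU_023473), a tachykinin receptor, stood at 5.67, 6.89 and 9.36 CPM in RN-S and 0.222, 0.412 and 0.211 CPM in ES-S, with every nerve library above every esophagus library (log2 fold-change 4.61 ± 0.47 (SE), adjusted p = 2.4e-05). NmbrL_4 (SPU_018963), named after the neuromedin B receptor, stood at 3.85, 2.82 and 3.40 CPM in RN-S and 0, 0.103 and 0.211 CPM in ES-S, a ratio of 31.3 (95% counting interval 10.4 to 155) with an adjusted p of 2.0e-04. Somatostatin-type receptors Sstr4L, Sstr5L_2 and Sstr5L were higher in the nerve by 2.43, 2.24 and 2.18 on the log2 scale, with adjusted p of 1.5e-04, 7.2e-04 and 1.3e-04. CcK/GLr (SPU_026458), a cholecystokinin-type receptor, stood at 17.9, 28.1 and 24.1 CPM in RN-S and 5.67, 7.42 and 6.66 CPM in ES-S, again without overlap (log2 fold-change 1.81 ± 0.25 (SE), adjusted p = 2.1e-04). The exception was Galr2L_36 (SPU_028056), named after a galanin receptor, at 15.8, 6.70 and 6.66 CPM in ES-S and 1.07, 0.971 and 0.972 CPM in RN-S (log2 fold-change -3.16 ± 0.38 (SE), adjusted p = 8.0e-05).

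Genes of the synapse itself were called about as often as all features. Of 13 tested, 2 were higher in RN-S and 2 in ES-S (15.4% each, near the 17.4% and 22.4% of all features), with a median of 0.43, and none was higher in RN of small animals. An unadjusted p under 0.05 was seen for 8 (52.3% of all features had one). All RN-S libraries were above all ES-S libraries for 5 and below them for 3 (23.6% and 27.6% of all features). Stx1 (syntaxin, a membrane protein of vesicle fusion) stood at 5.45, 4.37 and 3.89 CPM in RN-S and 4.005, 5.46 and 3.80 CPM in ES-S, and its groups overlapped. Neurx (SPU_024416), a neurexin, an adhesion protein of the presynaptic side, was higher in nerve at 15.0, 23.4 and 18.8 CPM against 5.23, 6.28 and 3.38 CPM (log2 fold-change 1.95 ± 0.29 (SE), adjusted p = 3.1e-04). Syt12, a synaptotagmin, was called too, at 2.57, 3.59 and 3.52 CPM against 0.445, 1.85 and 0.423 CPM (log2 fold-change 1.96), but lost its call without any of ES-S 2010, ES-S 2013, RN-S 2010, RN-S 2011 or RN-S 2013, its values being 2.77 without the libraries of 2011, 1.48 without ES-S 2010, 2.84 without ES-S 2011, 1.47 without ES-S 2013, 1.97 without RN-S 2010, 1.76 without RN-S 2011 and 1.75 without RN-S 2013. Cadps (SPU_008277), which primes dense-core vesicles for release, was higher in the esophagus at 12.5, 11.3 and 12.6 CPM against 1.82, 2.52 and 1.82 CPM (log2 fold-change -2.55 ± 0.31 (SE), adjusted p = 8.8e-05). MuskL (SPU_024610), named after the receptor kinase of the vertebrate neuromuscular junction, was also higher there, at 11.3, 16.6 and 8.56 CPM against 4.28, 4.85 and 3.77 CPM (log2 fold-change -1.46 ± 0.28 (SE), adjusted p = 0.0018).

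Among genes of axon growth and guidance the guidance cue Netrin1 (SPU_004245) stood out, at 306, 397 and 270.0 CPM in RN-S and 6.45, 9.37 and 5.39 CPM in ES-S. Every nerve library was far above every esophagus library (log2 fold-change 5.53 ± 0.25 (SE), adjusted p = 1.5e-07), and the value hardly moved over the 9 fits that left out a year or a library, from 5.35 to 5.75. Of 13 genes tested 5 (38.5%, against 17.4% of all features) were higher in RN-S, 1 (7.69%, against 22.4%) was higher in ES-S and 7 were not called, with a median of 0.83; all 13 were higher in RN of large animals. Trk (SPU_020803), a neurotrophin receptor kinase, stood at 6.20, 11.7 and 11.3 CPM against 1.001, 2.37 and 0.951 CPM (log2 fold-change 2.78 ± 0.37 (SE), adjusted p = 1.5e-04). Celsr1, an atypical cadherin of planar polarity, was higher in nerve by 2.302 on the log2 scale (adjusted p = 0.0031), and by 2.92 without ES-S 2011. The Slit receptor RoboL_1 was only just past 2-fold, at 77.4, 91.8 and 118 CPM against 48.5, 41.9 and 46.9 CPM (log2 fold-change 1.04 ± 0.22 (SE), adjusted p = 0.0031), and lost its call at 0.89 without the libraries of 2013, 0.98 without ES-S 2011 and 0.89 without RN-S 2013. Gdpd5, a phosphodiesterase linked to motor neuron differentiation in vertebrates, was called higher in ES-S (log2 fold-change -1.09) and lost that call in 7 of the 9 fits, at -0.91 without the libraries of 2010, -0.99 without the libraries of 2011, -1.11 without ES-S 2010, -1.08 without ES-S 2011, -0.95 without ES-S 2013, -0.81 without RN-S 2010 and -0.87 without RN-S 2011.

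Of 11 genes of ion channels and their regulators, 5 (45.5%, against 17.4% of all features) were higher in RN-S and none in ES-S, with a median of 1.0, and all 11 were higher in RN of large animals. In edgeR 2 members were lower in nerve at an unadjusted p under 0.05, and by DESeq2 0 were called in that direction. Trpv6L (SPU_009599), a calcium channel of the TRP family, stood at 3.53, 3.59 and 2.07 CPM in RN-S and 0.222, 0.309 and 0.106 CPM in ES-S, without overlap (log2 fold-change 3.78 ± 0.53 (SE), adjusted p = 2.3e-04). Gucy1b3 (SPU_000117), which is no channel but a subunit of the nitric oxide receptor that makes cyclic GMP, stood at 27.5, 27.5 and 40.3 CPM against 5.45, 6.08 and 5.07 CPM, with RN-S of 2013 the highest (log2 fold-change 2.50 ± 0.28 (SE), adjusted p = 4.4e-05). Trpc7, another TRP channel, was higher in nerve by 2.002 on the log2 scale (adjusted p = 0.0032) and lost its call at 1.64 without the libraries of 2010. The potassium channel Kcnk18L6 (SPU_010566) stood at 22.02, 22.4 and 24.2 CPM against 8.01, 10.1 and 11.7 CPM (log2 fold-change 1.21 ± 0.25 (SE), adjusted p = 0.0024).

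Of 10 genes of the axonal cytoskeleton and its motors, 4 (40.0%, against 17.4% of all features) were higher in RN-S, none was higher in ES-S and 6 were not called, with a median of 0.80; here too all were higher in RN of large animals. In edgeR 1 member was lower in nerve at an unadjusted p under 0.05, and by DESeq2 0 were called in that direction. Stmn1 (SPU_004713), stathmin, which destabilises microtubules, stood at 136, 136 and 152 CPM in RN-S, with little spread, and at 18.5, 27.9 and 8.56 CPM in ES-S (log2 fold-change 3.08 ± 0.34 (SE), adjusted p = 4.6e-05). Taui1ph1 (SPU_013254), a microtubule-associated protein matching human MAP2, stood at 135, 152 and 154 CPM against 42.2, 51.4 and 46.6 CPM, both groups being tight and apart (log2 fold-change 1.66 ± 0.21 (SE), adjusted p = 9.5e-05). The kinesin light chain Klc (SPU_018898), which links cargo to a motor, stood at 237, 283 and 236 CPM against 92.4, 128 and 71.1 CPM (log2 fold-change 1.41 ± 0.22 (SE), adjusted p = 3.8e-04). Khc, the matching heavy chain, was not called, at 11.9, 12.5 and 17.01 CPM against 21.03, 24.5 and 14.5 CPM.

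Of 15 genes tested among transcription factors used in neural development, 6 (40.0%, against 17.4% of all features) were higher in RN-S, 4 (26.7%, near the 22.4% of all features) higher in ES-S and 5 not called, with a median of 0.88, and 8 were higher in RN of small animals. Mab21l2 (SPU_001059), whose primers are printed above and which acts in eye and neural development in vertebrates, stood at 481, 176 and 412 CPM in RN-S and 4.56, 3.19 and 2.96 CPM in ES-S. RN-S of 2011 was the lowest nerve library and still far above the esophagus (log2 fold-change 6.54 ± 0.33 (SE), adjusted p = 3.0e-07). Brn1/2/4 (SPU_016443), a POU-domain factor of neurons, stood at 9.19, 10.5 and 8.87 CPM in RN-S and 0.111, 0.206 and 0.106 CPM in ES-S (log2 fold-change 5.95 ± 0.47 (SE), adjusted p = 4.5e-06). Barx (SPU_001519), a homeobox gene, stood at 11.2, 9.61 and 23.1 CPM in RN-S with no count in any ES-S library, at least 132.6-fold higher against a floor of 3 counts over the group, with an adjusted p of 8.5e-06. Hox8_1 (SPU_002630), a gene of the Hox cluster that sets position along the body axis, stood at 135, 84.5 and 91.5 CPM in RN-S and 0.111, 0.824 and 0.211 CPM in ES-S, without overlap (log2 fold-change 7.995 ± 0.48 (SE), adjusted p = 8.3e-07), and its log2 fold-change was 9.31 without the libraries of 2011 and 9.18 without ES-S 2011.

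Of the factors higher in the esophagus, Prox1 (SPU_015984), a homeobox gene that acts in neurons and in gut organs of vertebrates, stood at 6.34, 8.55 and 5.18 CPM in ES-S and 0.214, 0.291 and 0.365 CPM in RN-S (log2 fold-change -4.48 ± 0.46 (SE), adjusted p = 2.9e-05). Ptf1a (SPU_002677), which specifies pancreas and inhibitory neurons in vertebrates, stood at 55.0, 16.4 and 41.5 CPM in ES-S and 11.2, 5.15 and 5.83 CPM in RN-S (log2 fold-change -2.27 ± 0.29 (SE), adjusted p = 1.1e-04). Its lowest esophagus library, of 2011, was above the highest nerve library. Msi1 (SPU_020274), an RNA-binding protein of neural and gut stem cells rather than a transcription factor, stood at 32.6, 44.5 and 35.4 CPM against 5.88, 6.31 and 7.54 CPM (log2 fold-change -2.51 ± 0.26 (SE), adjusted p = 2.7e-05). Nkx2-1 was called at -1.26 and lost the call in 5 of 9 fits, at -1.25 without the libraries of 2010, -0.75 without the libraries of 2011, -0.84 without ES-S 2011, -1.16 without RN-S 2010 and -1.19 without RN-S 2011. With RN-S of 2013 alone, 6 of 16 factors tested were called higher in nerve and 2 in esophagus, and of 22 transmitter receptors tested 9 and 2 were.

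Linked genes of other cell types were also mostly higher in the nerve libraries. All 15 muscle genes tested were higher in RN-S (17.4% of all features were), with a median of 2.29, and all 15 were higher in RN of small than of large animals. Of all linked genes higher in RN of small animals, 55.8% were called higher in RN-S. That share is the nearer comparison for this list and for the skeleton, matrix, cilia and coelomocyte lists below. The summed level of the 15 muscle genes was 257917, 114897 and 133818 CPM in RN-S and 25194, 18959.8 and 26635 CPM in ES-S. Msclact (SPU_006797), whose primers are printed above, is named as a muscle actin though its listed human match is ACTB. It made up most of the muscle sum, at 199619, 82461 and 108959 CPM in RN-S and 19477, 13662 and 21607 CPM in ES-S. RN-S of 2010 was highest and the groups were well apart (log2 fold-change 2.76 ± 0.32 (SE), adjusted p = 6.3e-05). Calpn (SPU_015595), a calponin-type protein of smooth muscle, stood at 28734, 12709 and 6715 CPM in RN-S and 643, 754 and 673 CPM in ES-S (log2 fold-change 4.28 ± 0.42 (SE), adjusted p = 2.0e-05), with a log2 fold-change of 4.92 without RN-S 2013. Its nerve values spread widely while its esophagus values were close together. TropT (SPU_006532), the troponin that anchors the thin-filament switch of striated muscle, stood at 132, 78.0 and 99.3 CPM against 11.01, 15.1 and 10.6 CPM (log2 fold-change 3.06 ± 0.28 (SE), adjusted p = 1.3e-05). SmtnL (smoothelin) and ProjL (a titin-like protein) were higher by 3.17 and 2.95 on the log2 scale, with adjusted p of 1.9e-06 and 2.7e-06. Actin genes of a species are near-identical, and reads could be shared between copies.

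Genes of skeleton-forming cells gave the highest median of the 21 lists. All 14 tested were higher in RN-S (against 17.4% of all features), with a median log2 fold-change of 5.88, or 5.45 with the genes that had no esophagus count set to their bound, and all 14 were higher in RN of small animals. Their summed level was 810.5, 464 and 661 CPM in RN-S and 44.1, 38.0 and 41.3 CPM in ES-S. Members with a single esophagus count or none were tested only because of their RN-S counts, so they could not have been called higher in ES-S. Sm29 (SPU_005990), a spicule matrix protein, stood at 228, 109 and 56.9 CPM in RN-S and at 0, 0.103 and 0 CPM in ES-S, a ratio of 3759.9 (95% counting interval 674 to 148546) on a single esophagus count, with an adjusted p of 1.3e-07. It was highest in RN-S of 2010 and lowest in RN-S of 2013. C-lectin/PMC1 (SPU_027906), a lectin of the mineral-forming mesenchyme of the embryo, stood at 23.1, 9.13 and 4.25 CPM in RN-S with no esophagus count, at least 116-fold higher. Sm30E (SPU_004867), a spicule matrix protein with primers printed above, stood at 27.8, 20.9 and 9.84 CPM in RN-S and 0.779, 0.412 and 0.740 CPM in ES-S (log2 fold-change 4.82 ± 0.41 (SE), adjusted p = 7.4e-06). Msp130_1, a surface glycoprotein of skeleton-forming cells, was at 3.31, 3.40 and 1.09 CPM with no esophagus count (at least 25.2-fold higher), and Sm32 at 22.1, 17.4 and 10.3 CPM against 0.111, 0 and 0 CPM (a ratio of 476 (95% counting interval 85.0 to 18827)). Cara14LA (SPU_001138), a carbonic anhydrase, and Msp130r2 were the members with more than 1 CPM in every ES-S library, Cara14LA at 34.8, 31.2 and 31.5 CPM against 406, 238 and 505 CPM in RN-S (log2 fold-change 3.49 ± 0.27 (SE), adjusted p = 3.6e-06). Spicule matrix genes form families of similar sequence, so their shares of reads are uncertain.

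Connective tissue genes moved in the same direction. All 15 genes of collagen and matrix tested were higher in RN-S (against 17.4% of all features), with a median of 2.56 and a summed level of 4868, 3655 and 2744 CPM in RN-S and 534, 414 and 344 CPM in ES-S, and 14 of them were higher in RN of small animals. Sparc_2 (SPU_012548), a collagen-binding matrix protein, stood at 1386, 887 and 733 CPM against 70.6, 46.7 and 53.7 CPM (log2 fold-change 4.11 ± 0.24 (SE), adjusted p = 7.4e-07). Timp4 (SPU_008865), an inhibitor of matrix-degrading proteases, stood at 506, 417 and 367 CPM against 17.7, 12.8 and 5.07 CPM (log2 fold-change 5.31 ± 0.32 (SE), adjusted p = 8.2e-07), and Timp2b was higher by 4.65 (adjusted p = 1.5e-06). The fibrillar collagen FcolI/II/IIIf (SPU_026008) stood at 1289.9, 1095 and 549 CPM against 132, 113 and 91.5 CPM, with RN-S of 2013 the lowest of the nerve (log2 fold-change 3.05 ± 0.24 (SE), adjusted p = 4.9e-06). Cola2L_2, with thrombospondin THBS1 as its human match, stood at 3.42, 4.66 and 7.05 CPM in RN-S and 0.111, 0.103 and 0.106 CPM in ES-S, a ratio of 46.5 (95% counting interval 15.6 to 228) on 3 esophagus counts.

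Of 17 genes of motile cilia, 15 (88.2%, against 17.4% of all features) were higher in RN-S, none in ES-S and 2 were not called, with a median of 2.08; 16 of the 17 were higher in RN of small animals. ODF3 (SPU_014186), a protein of the outer dense fibres and of cilia, stood at 123, 98.4 and 120.2 CPM in RN-S and 18.9, 19.7 and 22.5 CPM in ES-S, both tight and apart (log2 fold-change 2.48 ± 0.22 (SE), adjusted p = 1.0e-05). Oda/Ic1L (SPU_005973), an intermediate chain of the outer dynein arm that drives the ciliary beat, stood at 57.2, 36.5 and 31.6 CPM against 7.45, 7.11 and 8.14 CPM (log2 fold-change 2.42 ± 0.27 (SE), adjusted p = 5.2e-05). The log2 fold-changes in this list ran from 0.46 to 2.68.

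Immune effectors of coelomocytes, the cells of the body cavity fluid, were higher in the nerve for 3 of 4 genes tested (17.4% of all features were; median 2.75), all 4 being higher in RN of small animals. Ams (SPU_021526), amassin, the clotting protein of coelomocytes, stood at 324, 245 and 308 CPM in RN-S and 1.11, 5.25 and 0.634 CPM in ES-S. The esophagus library of 2011 was the highest of its group and far under the nerve (log2 fold-change 7.21 ± 0.58 (SE), adjusted p = 5.0e-06), and the log2 fold-change was 8.50 without the libraries of 2011, 6.53 without the libraries of 2013, 6.62 without ES-S 2010, 8.35 without ES-S 2011 and 6.51 without ES-S 2013. The antimicrobial peptide gene strongylocin (SPU_012852) stood at 196, 237 and 146 CPM against 20.4, 39.2 and 14.1 CPM (log2 fold-change 3.07 ± 0.25 (SE), adjusted p = 4.9e-06). Strongylocin2 had a log2 fold-change of 2.43 (adjusted p = 1.1e-05). MacpfD1, a perforin-domain gene, was not called, at 3.10, 1.26 and 1.94 CPM against 1.22, 1.24 and 0.846 CPM.

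The share of the neuronal differences that moves with these other cell types was not tested. With RN-S of 2013 alone against ES-S, 15 of 15 muscle genes, 12 of 13 skeleton-forming genes, 12 of 16 collagen and matrix genes and 14 of 17 cilia genes were called higher in nerve. The medians of the muscle genes over the year pairs of 2010, 2011 and 2013 were 2.47, 2.20 and 2.33, those of the skeleton-forming genes 4.49, 4.17 and 3.50, and those of the neuropeptide receptors 1.62, 1.73 and 1.98, on a log2 CPM scale.

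**Figure D3:**
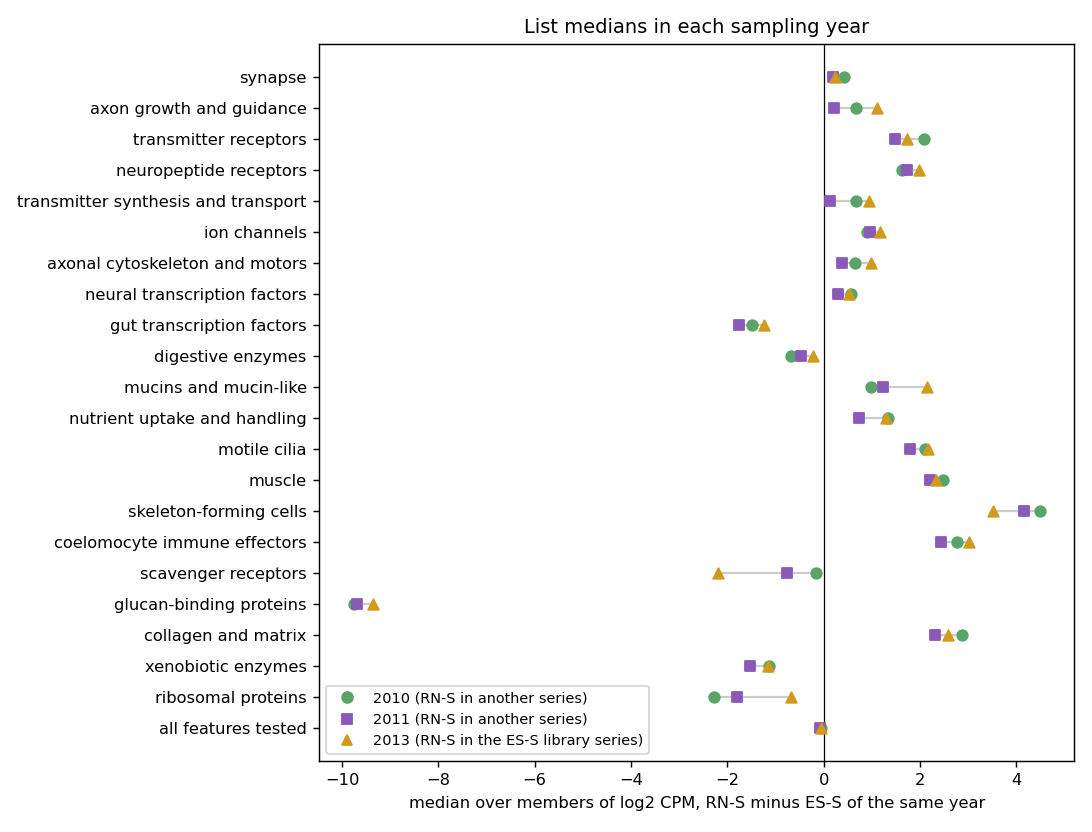
Median over the members of each list of the log2 CPM difference between RN-S and ES-S (x axis) within each sampling year, for the 21 lists and all features tested (y axis). Yearly medians of most lists lie close together, while those of the ribosomal proteins run from -2.27 (2010) to -0.67 (2013) and those of the scavenger receptors from -0.16 to -2.19.

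The esophagus was marked by FoxA (SPU_006676), a forkhead factor of endoderm, at 729, 637 and 709 CPM in ES-S and 0.855, 1.46 and 2.67 CPM in RN-S. The esophagus values were close together and the nerve was low in every year (log2 fold-change -8.75 ± 0.38 (SE), adjusted p = 1.3e-07). FoxL1 (SPU_015719), a forkhead factor expressed in the mesenchyme of the vertebrate gut, stood at 45.3, 43.9 and 35.9 CPM against 6.84, 4.66 and 6.68 CPM (log2 fold-change -2.79 ± 0.27 (SE), adjusted p = 1.7e-05). Pax1/9, a pharyngeal endoderm factor, was not called, at 54.0, 42.8 and 50.3 CPM in ES-S and 43.9, 33.3 and 47.3 CPM in RN-S. Hlx (SPU_014802), a homeobox gene of visceral mesoderm in vertebrates that the list holds as a gut gene, went the other way, at 10.9, 6.60 and 11.9 CPM in RN-S and 0.111, 0 and 0 CPM in ES-S, a ratio of 271 (95% counting interval 48.2 to 10729.6) on a single esophagus count. With 4 genes tested, 2 higher in ES-S and 1 in RN-S (22.4% and 17.4% of all features), and with 2 of the 4 higher in RN of small animals, the median of -1.52 says little.

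Glucan-binding proteins, which recognise the sugar polymers of microbial walls in invertebrate immunity, showed the widest difference of all lists, with a median of -11.16. All 4 were higher in ES-S (22.4% of all features were), 2 of them being higher in RN of small and 2 in RN of large animals. Members almost without RN-S counts were tested only because of their ES-S counts, so they could not have been called higher in RN-S. Gnbp1/2/3A (SPU_016163) stood at 531, 473 and 426 CPM in ES-S and 0.107, 0 and 0.122 CPM in RN-S, where 2 counts were seen in all, a ratio of 6630.4 (95% counting interval 1835 to 54755). Gnbp1/2/3C (SPU_024075) stood at 282, 232 and 229.6 CPM against 0.107, 0.0971 and 0 CPM, a ratio of 3444 (95% counting interval 953 to 28447). Gnbp1/2/3B_1 (SPU_006530) kept a low level in every nerve library, at 2.89, 3.50 and 0.851 CPM against 289, 289.7 and 239 CPM (log2 fold-change -6.89 ± 0.36 (SE), adjusted p = 3.9e-07). The remaining member, SPU_010643, stood at 274, 196 and 185 CPM in ES-S and 0.107, 0 and 0.243 CPM in RN-S. The summed level of the 4 genes was 1376, 1191 and 1079.6 CPM in ES-S and 3.21, 3.59 and 1.22 CPM in RN-S.

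Of 19 genes of nutrient uptake and handling tested, 9 (47.4%, against 17.4% of all features) were higher in RN-S, 4 (21.1%, near the 22.4% of all features) higher in ES-S and 6 not called, with a median of 0.88, and 12 were higher in RN of small animals. Aqp8 (SPU_012095), an aquaporin, a water channel of gut epithelium, stood at 3241, 3209 and 3023 CPM in ES-S and 0.214, 0.583 and 0.729 CPM in RN-S. It was even over the years in the esophagus and almost lacking in the nerve (log2 fold-change -12.59 ± 0.42 (SE), adjusted p = 8.2e-08). Slc28a3_2 (SPU_021267), a sodium-coupled nucleoside transporter, stood at 39.9, 38.9 and 30.3 CPM against 0.534, 0.485 and 0.122 CPM (log2 fold-change -6.53 ± 0.38 (SE), adjusted p = 6.7e-07). Slc5a9_9 (SPU_026220), named after a sodium-coupled sugar transporter, stood at 44.2, 28.9 and 14.7 CPM against 0.962, 1.26 and 1.34 CPM (log2 fold-change -4.51 ± 0.40 (SE), adjusted p = 9.8e-06). Fabp2L2 (SPU_004345), a fatty acid-binding protein of the intestinal type, varied most between years, at 64.2, 276 and 18.2 CPM in ES-S and 2.03, 1.17 and 7.29 CPM in RN-S. ES-S of 2011 was far above the other years (log2 fold-change -4.59 ± 1.0 (SE), adjusted p = 0.0038), and the log2 fold-change was -3.02 without the libraries of 2011, -6.46 without the libraries of 2013, -5.42 without ES-S 2010, -3.60 without ES-S 2011, -5.61 without ES-S 2013 and -6.20 without RN-S 2013, called in all of them.

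Other transporters were higher in the nerve. Slc5a8 (SPU_012573), of the same sodium-coupled family, stood at 29.3, 17.7 and 30.4 CPM in RN-S and 0.890, 1.03 and 1.06 CPM in ES-S (log2 fold-change 4.64 ± 0.33 (SE), adjusted p = 2.4e-06). Slc29a1 (SPU_028310), an equilibrative nucleoside transporter, stood at 20.6, 12.6 and 11.9 CPM against 0.890, 0.515 and 0.634 CPM (log2 fold-change 4.44 ± 0.34 (SE), adjusted p = 4.0e-06). Slc5a12_1 was higher by 4.78 (adjusted p = 1.3e-05) and by 5.51 without the libraries of 2011. Rbp2, a retinol-binding protein, was higher by 5.05 (adjusted p = 4.0e-05), and by 4.34 without the libraries of 2011 and 5.79 without the libraries of 2013. All of these were higher in RN of small than of large animals.

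Of 9 digestive enzymes tested, 2 (22.2%, against 17.4% of all features) were higher in RN-S, 3 (33.3%, against 22.4%) in ES-S and 4 were not called, with a median of -0.57. With so few genes these shares are near those of all features, and 6 of the 9 were higher in RN of small animals. Mgam (SPU_017661), maltase-glucoamylase, which splits starch fragments, stood at 135, 87.7 and 49.7 CPM in ES-S and 32.3, 28.3 and 18.5 CPM in RN-S (log2 fold-change -1.71 ± 0.23 (SE), adjusted p = 1.5e-04). Naalad2L_11 (SPU_028937), a peptidase, stood at 349, 323 and 289 CPM against 139, 92.4 and 94.1 CPM (log2 fold-change -1.58 ± 0.21 (SE), adjusted p = 1.6e-04). Acel (SPU_026910), a gene like angiotensin-converting enzyme, a peptidase that also cuts signalling peptides, was higher in RN-S at 84.9, 41.0 and 46.9 CPM against 0.334, 0.103 and 0.106 CPM (log2 fold-change 8.24 ± 0.37 (SE), adjusted p = 1.7e-07), with a log2 fold-change of 8.93 without ES-S 2010. Enpp7, which splits sphingomyelin, was higher in RN-S by 3.08 (adjusted p = 1.1e-04). Muc17, the single mucin-like gene tested, whose human match is the matrix protein TNR, was higher in RN of large animals and was higher in RN-S than in ES-S, at 8.12, 9.71 and 11.1 CPM against 4.005, 4.02 and 2.33 CPM (log2 fold-change 1.49 ± 0.33 (SE), adjusted p = 0.0041).

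Enzymes that process foreign compounds were more often higher in the esophagus. Of 18 tested, 11 (61.1%, against 22.4% of all features) were higher in ES-S and 5 (27.8%, against 17.4%) in RN-S, with a median of -1.19. Of the 18, 17 were higher in RN of small than of large animals. Sult1c_3 (SPU_012342), a sulfotransferase, stood at 211, 169 and 144 CPM in ES-S and 1.39, 1.07 and 1.22 CPM in RN-S, both tight (log2 fold-change -7.14 ± 0.29 (SE), adjusted p = 1.1e-07). Cyp2U (SPU_008632), a cytochrome P450, stood at 144, 139 and 99.2 CPM against 7.70, 6.02 and 6.56 CPM (log2 fold-change -4.23 ± 0.25 (SE), adjusted p = 7.5e-07). Cyp2L49, of the same P450 family, was at 25.1, 27.3 and 21.5 CPM in ES-S against 0.214, 0 and 0.122 CPM in RN-S, a ratio of 229 (95% counting interval 78.1 to 1113), and the sulfotransferase Sult1d1 at 3.78, 4.22 and 3.38 CPM in ES-S with no nerve count (at least 35.3-fold higher).

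The glutathione transferases Gst, GSTA4, Gst_pi and GSTT1 and the membrane-bound MGST and Mgst3 were all called higher in ES-S. Mgst3 (SPU_016492) stood at 312, 375 and 245 CPM in ES-S and 35.6, 36.3 and 46.1 CPM in RN-S (log2 fold-change -2.97 ± 0.25 (SE), adjusted p = 7.7e-06). Gst_pi (SPU_017373) stood at 401, 411 and 377 CPM against 36.6, 23.9 and 80.7 CPM, RN-S of 2013 being the highest nerve library and still far lower than the esophagus (log2 fold-change -3.26 ± 0.35 (SE), adjusted p = 3.5e-05). GSTA4 and MGST were the closest to the 2-fold threshold, at -1.006 and -1.14 on the log2 scale, and lost their calls in several fits: GSTA4 at -0.92 without the libraries of 2011, -0.99 without the libraries of 2013, -0.91 without ES-S 2010, -0.98 without ES-S 2013, -0.78 without RN-S 2011 and -0.94 without RN-S 2013, and MGST at -0.99 without the libraries of 2010 and -0.97 without RN-S 2010. In the nerve, Cyp1L6 (SPU_007404), a P450 matching human CYP1A1, stood at 232, 109 and 153 CPM against 18.2, 14.0 and 14.8 CPM in ES-S (log2 fold-change 3.34 ± 0.24 (SE), adjusted p = 2.6e-06). Cyp2L24 (SPU_010576) stood at 145, 84.6 and 145 CPM against 14.5, 20.7 and 9.72 CPM, without overlap (log2 fold-change 3.08 ± 0.35 (SE), adjusted p = 5.1e-05). Ugt1L, a glucuronosyltransferase, was higher by 4.80 (adjusted p = 4.5e-05), and by 5.66 without the libraries of 2011 and 5.40 without ES-S 2011. P450 and transferase genes form families in which reads may be shared.

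Scavenger receptors with cysteine-rich domains, a family much expanded in sea urchins and used by immune cells, were higher in ES-S for 5 (41.7%, against 22.4% of all features) and in RN-S for 2 (16.7%, near the 17.4% of all features) of 12 tested, of which 5 were higher in RN of small animals, with a median of -0.50 and yearly medians of -0.16, -0.76 and -2.19. Srcr226 (SPU_028669) stood at 40.4, 348 and 9.195 CPM in ES-S and 0.107, 0.388 and 0 CPM in RN-S. Its esophagus libraries differed widely, ES-S of 2011 being by far the highest, but all were above the nerve (log2 fold-change -9.49 ± 0.42 (SE), adjusted p = 1.5e-07), and the log2 fold-change was -8.51 without the libraries of 2011, -7.05 without ES-S 2011 and -10.84 without RN-S 2011. Srcr164 (SPU_021348) stood at 86.1, 65.0 and 70.0 CPM in ES-S with 3 counts in RN-S, all in 2013, a ratio of 682 (95% counting interval 233 to 3311). The gene named DMBT1 or Srcr51 (SPU_006538) stood at 1045, 983 and 763 CPM against 149, 251 and 129.9 CPM (log2 fold-change -2.44 ± 0.24 (SE), adjusted p = 2.1e-05). Srcr53 (SPU_006731) was the reverse, at 157, 250.1 and 278 CPM in RN-S and 15.8, 19.4 and 21.98 CPM in ES-S (log2 fold-change 3.55 ± 0.23 (SE), adjusted p = 1.2e-06). Copies of this family resemble each other, and the split of reads between them is uncertain.

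Of 13 ribosomal proteins tested, 11 (84.6%, against 22.4% of all features) were called higher in ES-S and none in RN-S, with a median of -1.58, and all 13 were higher in RN of small than of large animals. The count depended on the fit: with no year block and all 6 libraries kept, 3 were called, the test against a 2-fold change called 5, and edgeR on all 18 libraries called 0 (0 had an unadjusted p under 0.05). Their summed level was 16127, 13063 and 20459 CPM in ES-S and 5479.7, 3745 and 12542 CPM in RN-S, so that RN-S of 2013, of the library series of the esophagus, was closest to it. Rpl23 (SPU_028226) stood at 1137, 840.2 and 1449.5 CPM in ES-S and 135, 155 and 795 CPM in RN-S, the nerve library of 2013 lying just under the lowest esophagus library. Rps24 (SPU_008650) stood at 1123, 931 and 1413 CPM against 168, 181 and 765 CPM, with the same pattern. Rpl4 differed in that its low library was RN-S of 2011 alone, at 884, 98.1 and 1271 CPM in RN-S and 1720.5, 1445 and 1697 CPM in ES-S. With RN-S of 2013 alone against ES-S, 0 of 13 were called by edgeR (0 had an unadjusted p under 0.05 in either direction) and the median was -0.32, against 13 called and a median of -2.17 without the libraries of 2013. Fitted without RN-S of 2010, or without RN-S of 2011, and with no year block, 0 and 0 were called by edgeR, where 2 and 2 had an unadjusted p under 0.05. Library series and tissue cannot be told apart for these genes in 2010 and 2011.

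**Figure D4:**
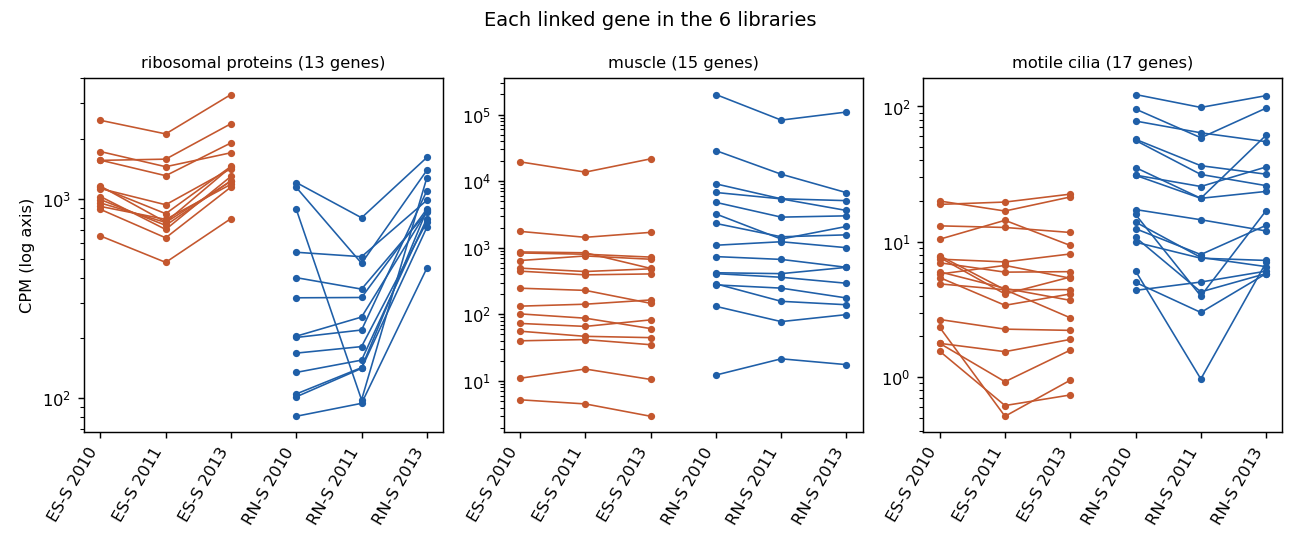
CPM (log axis) of each linked ribosomal protein, muscle and motile cilia gene in the 6 libraries, each line being a gene. For most ribosomal proteins RN-S of 2010 and 2011 lie below RN-S of 2013, whereas the muscle genes stay higher in all 3 RN-S libraries than in ES-S.

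Over all 1430 linked genes, of which 1297 were tested, 375 (28.9%) were called higher in RN-S and 251 (19.4%) higher in ES-S. Among the 8 with the greatest fitted increase were Sm29, Dbh_1, Barx, C-lectin/PMC1, Slc5a7_4 and Mtnr1b_1, all described above. The others were Mdga2 (SPU_015903), an immunoglobulin-domain adhesion protein, at 6.41, 8.93 and 4.74 CPM in RN-S with no count in ES-S (at least 64.3-fold higher), and SPU_006899, which has no name in the study and is tied to its feature by mean count alone. SPU_006899 stood at 173, 207 and 161 CPM in RN-S and 0.222, 0.824 and 0.106 CPM in ES-S (log2 fold-change 8.87 ± 0.41 (SE), adjusted p = 2.0e-07), with a log2 fold-change of 9.89 without the libraries of 2011 and 9.98 without ES-S 2011.

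The 8 greatest decreases held Aqp8, Gnbp1/2/3A, Gnbp1/2/3C and SPU_010643. Hypp_2548 (SPU_021365), a predicted protein without a known role, had the greatest of all, at 1930.0, 165 and 719 CPM in ES-S with no nerve count, at least 8499.9-fold higher in the esophagus. SPU_000039 stood at 28.6, 41.4 and 20.1 CPM in ES-S with no nerve count, at least 280.2-fold higher. SPU_014551, labelled So/Gpcr, stood at 392, 18.6 and 197 CPM in ES-S and 0, 0.0971 and 0.122 CPM in RN-S, a ratio of 2761 (95% counting interval 764 to 22801), and its esophagus libraries were far apart. SPU_028034 stood at 2040.2, 1532 and 1817 CPM in ES-S and 1.28, 0.680 and 0.972 CPM in RN-S (log2 fold-change -10.84 ± 0.34 (SE), adjusted p = 8.2e-08).

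The linked genes with the highest CPM in both tissues included FerHc (SPU_024366), a ferritin heavy chain, which stores iron. It stood at 23184, 25509 and 31306 CPM in ES-S and 4883, 5085 and 6332 CPM in RN-S, both groups being tight (log2 fold-change -2.29 ± 0.25 (SE), adjusted p = 4.2e-05). Thymbh (SPU_026031), a thymosin beta, which binds actin monomers, did not differ beyond its spread, at 18795, 17115 and 20009 CPM in ES-S and 22962, 12384 and 23869 CPM in RN-S (log2 fold-change 0.027, adjusted p = 0.95). Its sign turned with total counts in place of TMM scaling (-0.054) and when years or libraries were left out. SPU_007135, matching human RGN (regucalcin), a calcium-binding protein, stood at 4498, 4618 and 531 CPM in ES-S and 5.45, 6.02 and 3.65 CPM in RN-S (log2 fold-change -8.92 ± 0.56 (SE), adjusted p = 1.0e-06), with a log2 fold-change of -9.64 without the libraries of 2013 and -9.82 without ES-S 2013.

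Features without a link made up most of the table. Of 29062 tested, 4918 were called higher in RN-S and 6557 higher in ES-S, with a median of -0.075. The unlinked features with the highest CPM among those called were TRINITY_DN4334_c13_g1, at 8904, 9019.9 and 9191 CPM in RN-S against 1397, 1023 and 1415 CPM in ES-S (log2 fold-change 2.84 ± 0.25 (SE), adjusted p = 9.4e-06), and TRINITY_DN324_c4_g1, higher in RN-S by 1.66 (adjusted p = 1.8e-04). In the other direction were TRINITY_DN35_c65_g1, at 19588, 15594 and 24720.1 CPM in ES-S and 2299, 759 and 5679 CPM in RN-S (log2 fold-change -3.19 ± 0.41 (SE), adjusted p = 1.3e-04), with -2.60 without the libraries of 2011, -2.59 without ES-S 2013 and -2.29 without RN-S 2011, and TRINITY_DN131262_c0_g1, with a log2 fold-change of -2.46 (adjusted p = 1.8e-04). The files pair none of these with a gene name.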

How the data were processed

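RNA of each pool was extracted with TRIzol, made into cDNA with the SMARTer kit and sequenced as paired-end Illumina reads. Per the submitters' processing notes, the authors used FastQC 0.10.1, Trimmomatic 0.38, Bowtie2 2.3.4, RSEM and DESeq 1.20, with a de novo Trinity assembly as reference. The deposited table holds the authors' estimated counts (RSEM expected counts) for 127198 Trinity groupings in 18 libraries, with no gene names. SMARTer cDNA carries no strand information here, so overlapping and antisense transcripts cannot be told apart. Reads carry no molecular identifiers, so intervals on counts cover counting error only.

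Groupings were tied to purple sea urchin gene IDs where the counts printed in the supplementary tables matched, which served for identity only: 591 genes by equal counts of a single grouping, 88 to a pair of groupings (then summed), 211 to the grouping with at least 95% of the gene's counts and 540 by mean count. After summing, 127110 features remained.

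Counts were rounded, filtered with filterByExpr, scaled by TMM and fitted with edgeR 4.0.16 (R 4.3.3, quasi-likelihood test) with tissue and sampling year, since the libraries of a year come from the same animals. The filter used the same libraries as the fit, so a feature could pass on the counts of a single tissue. Deviations from the group means correlated at 0.35, 0.34 and 0.29 within the years 2010, 2011 and 2013, and between -0.21 and -0.11 across years. The deviations of a tissue cancel out over its libraries, so positive values within years force negative values across years on average. P-values were adjusted over every feature in the fit (Benjamini-Hochberg). With the year block they measure how the tissue difference varied over the yearly pools. That spread was estimated partly from other features (2 residual degrees of freedom and a prior of 8.2 from all features). CPM use the TMM-scaled totals. SE is the absolute log2 fold-change divided by the square root of the F statistic of the test. It was derived from that test and does not cover how far a value moves when a library is left out. Where a group had at most 3 counts in all, the ratio of summed counts is given with its 95% interval, or, at 0, a bound against 3 counts over the group. On simulated counts for 28893 features of this comparison, 74% of genes changed by 2 and 92% of those changed by 3 on the log2 scale were recovered, with 9 false calls. Only 200 features were changed there, whereas 39.9% of features were called in the data. The simulated counts held no year or library series effect, so the false calls do not cover these.

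Members and lists were chosen with earlier results of these data known. Named are, per list, up to 4 called members in each direction with the largest log2 fold-change of one sign in all 3 pairs and the members of highest CPM, the 8 largest increases and decreases over all linked genes, and unlinked features of highest CPM. Other members are named with their values as examples, chosen after these were seen. Some genes that this rule names are not reported here. Alternatives were no block, DESeq2 1.42.0, other scalings, no filter, a test against a 2-fold change, all 18 libraries, each year or library left out, RN-S of 2013 alone, and single links only. The sampling year was taken from the sample titles, with which another label disagreed for some RN libraries.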

Additional observations from a re-analysis of the deposited data

How the results depend on the processing

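With no replicate block 11113 features (4959 higher in RN-S, 6154 in ES-S) were called, of which 10995 were among the 12101 reported, and this fit without the pairing dropped 6 of 135 named genes (Rpl29, Rpl24, Rpl23, Nacha7_1, Gdpd5 and DMBT1, Srcr47). With no filter on low counts 18316 features were called, 8278 of them higher in RN-S, of 117365 tested. The test against a 2-fold change called 7785, with 3190 higher in RN-S, and, of the linked genes higher in RN of large animals, 140 in RN-S and 102 in ES-S. RN-S of 2013 alone gave 6457 (2649 in RN-S, 3808 in ES-S), 29 list members higher in ES-S, 134 and 78 of the linked genes higher in RN of large animals, and 37 higher in ES-S of those higher in RN of small animals. Genes linked to a single grouping alone gave 86 list members higher in RN-S and 32 in ES-S, of 131 and 54, since fewer genes enter. DESeq2 with the block called 10954, DESeq2 size factors in edgeR 12130, total counts 12039 and all 18 libraries 9882 of 39511 tested. Leaving out a year or a library gave 9868 to 14958 calls. Of 185 list members called, all kept their sign in every fit that left out a year or a library and in which they could be tested, and 146 were called in each such fit.

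Among named genes that were not called, Ap3b2-2 turned to -0.030 with RN-S of 2013 alone. Thymbh turned to -0.054 with total counts and ranged from -0.0996 to 0.37 when a year or a library was left out. The causes were not tested. With 3 pools a tissue and 2 residual degrees of freedom, p-values measure how the tissue difference varied over the pooled years, with a spread estimated partly from other features. Library series cannot be told from tissue in 2010 and 2011.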
